A study of Homo sapiens with 6 samples.

Results

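RNA-seq of HEK-293T cells was examined for 10 transcription factor genes of the AP-1 and immediate early response: FOS, FOSB, FOSL1, FOSL2, JUN, JUNB, JUND, ATF3, EGR1 and CSRNP1. The genes were chosen by name, with the results of RfA1 against GFP in these same libraries known, so the differences between the groups in the 10 genes, and the thresholds they passed, are given as a description only and no p-value is printed for them. All 10 were among the 16655 genes of the deposited table and all 10 passed the filter on low counts, which left 13002 genes. HEK-293T is an established line from human embryonic kidney in which the SV40 large T antigen is expressed. The GFP group (n = 3) was transfected with the empty pEGFP-C1 vector, and the RfA1 group (n = 3) with the same vector carrying squid reflectin A1, codon-optimized for human cells, behind GFP. Both groups received Lipofectamine and plasmid and were harvested 24 h later, so that lipofection, GFP and the culture are shared by both, and no untransfected group is described by the labels. Nothing in the labels says that the replicates came from separate passages, and the spread between libraries may therefore be technical. The 6 libraries held 10272306 to 11566284 estimated counts, and in every pair the counts were further apart than sampling alone would give (chi-square per degree of freedom between 1.92 and 17.4). By this measure RfA1 replicate 2 was nearer to GFP replicates 2 and 3 (3.74 and 3.7) than to RfA1 replicates 1 and 3 (11.4 and 14), and GFP replicate 1 was slightly nearer to RfA1 replicate 1 (5.42) than to GFP replicates 2 and 3 (7.94 and 5.63). Differences between libraries also ran with transcript GC content, which is given where it touches a result. Of the markers checked for the cell line, VIM, KRT8, KRT18, NEFL, NEFM, LHX1 and PAX2 were all expressed, from 3.43 TPM (PAX2) to 724 TPM (VIM), whereas PTPRC of leukocytes, CDH5 and PECAM1 of endothelium and DCN of fibroblasts reached at most 0.09 TPM and ALB and COL3A1 at most 0.94 TPM. COL1A1, also checked for fibroblasts, was at 8.20 to 10.1 TPM.

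AP-1 is a dimer of basic leucine zipper proteins. JUN proteins can pair with each other, while FOS proteins need a JUN partner to bind DNA. ATF3 belongs to the ATF branch of the same zipper superfamily and is induced by many kinds of stress. Immediate early genes are transcribed within minutes of a growth factor or stress signal without new protein synthesis, because their promoters carry sites for factors that are already in the nucleus: the CArG box is bound by serum response factor, and the cyclic AMP response element (CRE) by CREB and ATF proteins. EGR1 is a zinc finger factor of this class, and CSRNP1, also known as AXUD1, encodes a nuclear protein induced by AXIN1.

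The promoters of FOS, EGR1, ATF3 and CSRNP1 are shown. FOS, ATF3 and CSRNP1 were higher with RfA1 and EGR1 was lower, as described below. No gene whose groups overlapped is shown. Each is the 250 bases before an annotated transcript start, 5′ to 3′ on the gene's own strand, from RefSeq on build GRCh38.p14. They lie at chr14:75278578-75278827 (FOS, plus strand), chr5:138465229-138465478 (EGR1, plus strand), chr1:212565157-212565406 (ATF3, plus strand) and chr3:39153592-39153841 (CSRNP1, minus strand). Capitals mark the short CRE form TGACG or its reverse complement CGTCA, the TATA box TATAAA and the CArG box.
FOS: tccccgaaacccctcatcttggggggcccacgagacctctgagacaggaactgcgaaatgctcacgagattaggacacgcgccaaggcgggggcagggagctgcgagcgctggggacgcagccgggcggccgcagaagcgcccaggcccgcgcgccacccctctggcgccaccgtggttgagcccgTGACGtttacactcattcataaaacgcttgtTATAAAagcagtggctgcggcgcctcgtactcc
EGR1: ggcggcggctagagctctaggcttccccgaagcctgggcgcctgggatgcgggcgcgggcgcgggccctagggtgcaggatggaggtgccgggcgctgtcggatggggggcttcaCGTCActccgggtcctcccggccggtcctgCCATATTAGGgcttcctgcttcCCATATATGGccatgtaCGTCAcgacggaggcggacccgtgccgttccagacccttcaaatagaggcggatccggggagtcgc
ATF3: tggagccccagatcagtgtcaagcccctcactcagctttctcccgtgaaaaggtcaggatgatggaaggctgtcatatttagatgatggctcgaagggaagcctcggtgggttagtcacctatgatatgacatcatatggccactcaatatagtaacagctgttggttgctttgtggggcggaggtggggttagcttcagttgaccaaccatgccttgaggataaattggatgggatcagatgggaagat
CSRNP1: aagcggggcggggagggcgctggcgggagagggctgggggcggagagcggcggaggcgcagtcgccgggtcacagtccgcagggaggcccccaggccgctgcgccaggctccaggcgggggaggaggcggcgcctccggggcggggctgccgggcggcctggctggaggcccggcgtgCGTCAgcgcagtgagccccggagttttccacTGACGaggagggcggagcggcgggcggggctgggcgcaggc
The FOS promoter had the short CRE form 64 bases before the start and a TATA box 33 bases before it. The EGR1 promoter had a pair of CArG boxes, which begin 105 and 83 bases before the start, and 2 short CRE forms at 135 and 66. CSRNP1 had 2 short CRE forms, at 72 and 41 bases before the start, in a sequence of 80.4% GC. The ATF3 stretch, at 49.2% GC, held none of these motifs. Both ATF3 and CSRNP1 have a further start in the table, and counts per gene do not tell which start was used in these cells.

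Windows of 300 bases, 250 before and 50 after the start, were available for 9 of the 10 genes, 11 windows in all. FOSL1 had no window in the table. Both strands were searched. The short CRE form TGACG was found in 8 of the 11 windows and in 8 of the 9 genes, against 24.6% of all 35116 windows of the table. ATF3 was the gene without it. The full CRE TGACGTCA, which contains the short form, was found in JUND only (1.85% of all windows), and the AP-1 site TGANTCA in FOSL2 only, 4 bases after the start (7.71% of all windows). The CArG box was found in EGR1 only (1.29% of all windows), TATAAA in 4 of the 11 windows (11.5% of all), CCAAT in 4 (34.6%) and GGGCGG in 7 (45%). The EGR site GCGTGGGCG was found in none of the 11 (0.795% of all windows). A match describes the letters of these windows and is not evidence that a factor was bound. Absence of a match holds only for the exact letters searched within these windows. A site further upstream, near another start or in a variant form would be missed.

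The JUN genes were far more abundant than the FOS genes. On the TPM scale, which corrects for gene length and was set by the authors, JUN stood at 305, 333 and 348 TPM in the GFP libraries and at 343, 429 and 310 TPM in the RfA1 libraries, well above every other gene of the group. In GFP cells JUND followed with 104 ± 10.9 TPM (SD, n = 3), ATF3 with 89.9 ± 4.84 TPM and JUNB with 49.1 ± 8.12 TPM. JUND and ATF3 overlapped in the GFP libraries, whereas in the RfA1 libraries ATF3, at 144 to 149 TPM, lay above JUND, at 85.7 to 133 TPM. EGR1 (15.3 ± 2.50 TPM in GFP cells) and CSRNP1 (8.35 ± 0.760 TPM) were lower. In RfA1 cells their order was the other way round, with 14.8 ± 0.628 TPM for CSRNP1 and 11.3 ± 2.30 TPM for EGR1. The FOS genes were the lowest, with 5.21 ± 1.36 TPM for FOSL2, 4.28 ± 0.460 TPM for FOS, 3.01 ± 0.812 TPM for FOSL1 and 1.85 ± 0.131 TPM for FOSB in GFP cells. Among the GFP libraries FOSL2 (3.72 to 6.38 TPM) overlapped with FOS (3.75 to 4.57 TPM), while FOS lay narrowly above FOSL1 (2.10 to 3.66 TPM) and FOSL1 narrowly above FOSB (1.76 to 2 TPM).

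**Figure D1:**
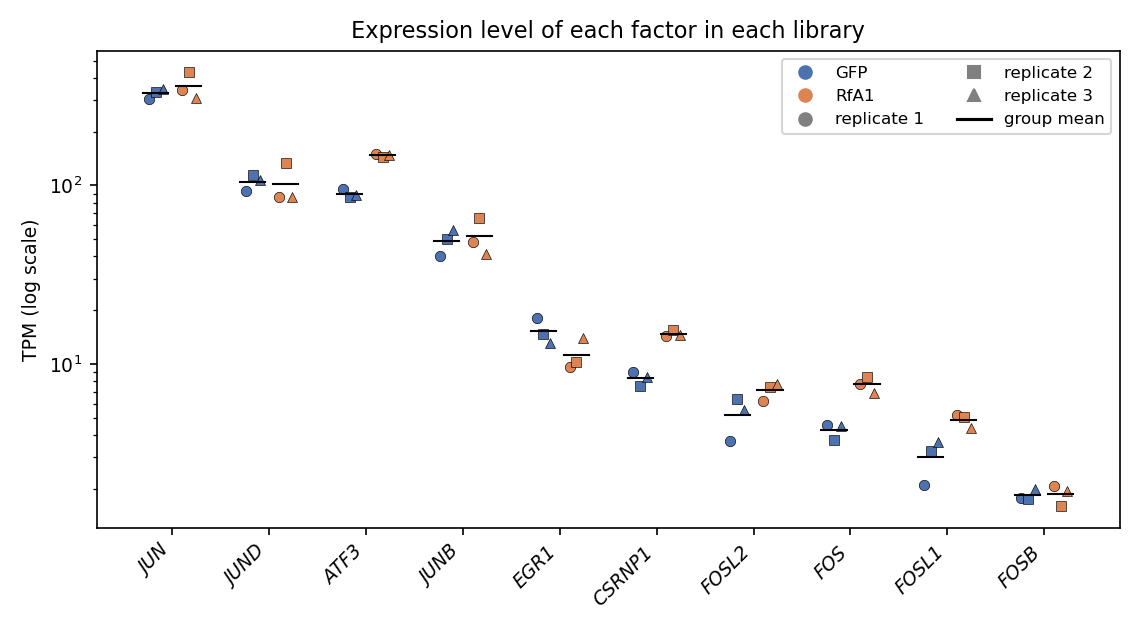
Level of each of the 10 genes in TPM (log scale) in each of the 3 GFP and 3 RfA1 libraries, with the genes ordered by their mean in GFP cells; marker shapes give the replicate number and black lines the group means. ATF3, CSRNP1, FOS and FOSL1 show no overlap between the groups, with all 3 RfA1 libraries on the upper side. The JUN genes are each spread more widely in the RfA1 group than in the GFP group, with RfA1 replicate 2 on top.

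Between RfA1 and GFP cells, ATF3 and CSRNP1, 2 of the 10 genes, were called by edgeR's quasi-likelihood test at the adjusted threshold of 0.05, and both were higher with RfA1. Over all 13002 genes, 10 passed (0.0769%), of which 8 were higher (0.0615% of the genes tested). In CPM, the count scaled to a normalized library total and not to gene length, the lowest RfA1 library exceeded the highest GFP library for 4 of the 10 genes, FOS, FOSL1, ATF3 and CSRNP1, against 9.86% of all genes tested. The reverse held for 1, EGR1, against 8.01% of all genes. The same 5 genes had an unadjusted p under 0.05 (higher in 7.3% and lower in 6.64% of all genes tested). The other 5, FOSB, FOSL2, JUN, JUNB and JUND, overlapped between the groups. The median log2 fold change of the 10 genes was 0.16, beside -0.0024 for all tested genes. Because the genes were picked with this comparison known, nothing is concluded from these counts. In bulk RNA a change in the share of responding cells and a change in RNA per cell cannot be told apart.

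Among the FOS subunits, FOS itself had 6.03, 5.21 and 6.09 CPM in GFP replicates 1, 2 and 3 and 9.74, 11.7 and 8.58 CPM in RfA1 replicates 1, 2 and 3. The lowest RfA1 library was above the highest GFP library, and the log2 fold change was 0.79 (standard error 0.157), or 1.73-fold. These levels rest on 59 to 69 estimated counts per GFP library and 90 to 123 per RfA1 library, and FOS did not pass the adjusted threshold. It passed with the trend of each library on transcript GC content as an offset (log2 fold change 0.83), where 1.12% of all genes were called higher, and without RfA1 replicate 2 (0.67), where 8.56% were. FOSL1, which encodes FRA1, is scarcer still. It had 2.16, 3.53 and 3.71 CPM in GFP cells and 5.01, 5.43 and 4.29 CPM in RfA1 cells, a log2 fold change of 0.64 (standard error 0.219) on 24 to 57 counts. GFP replicate 1 was the lowest FOSL1 library by a wide margin, and without it the log2 fold change was 0.44. FOSL1 passed with the GC offset (0.78). FOSL2, which encodes FRA2, had 16.5 to 18.8 CPM in GFP cells and 18.3 to 21.9 CPM in RfA1 cells, with overlap between the groups and a log2 fold change of 0.23 (standard error 0.112). FOSB was level, at 4.5 to 5.03 CPM in GFP cells and 4.19 to 4.91 CPM in RfA1 cells (log2 fold change -0.04, standard error 0.163).

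FOSL2 gave a different size on the TPM scale, where its log2 fold change was 0.41 with a pseudocount of 1 and 0.47 with a pseudocount of 0.1. The ratio of count to TPM, which follows the transcript length that the authors' quantification assigned, was 1.45 times the gene's own mean in GFP replicate 1 and 0.877 to 0.966 times in the other 5 libraries. In GFP replicate 1 FOSL2 had 191 counts but only 3.72 TPM, against 187 to 230 counts and 5.54 to 7.71 TPM elsewhere. The other 9 genes had ratios between 0.972 and 1.01 in every library. EGR1, whose groups were apart in CPM, overlapped in TPM, with 13.2 TPM in GFP replicate 3 and 13.9 TPM in RfA1 replicate 3.

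The 3 JUN genes had no difference between the groups larger than the spread between replicates. JUN had 655, 753 and 762 CPM in GFP cells and 703, 963 and 631 CPM in RfA1 cells (log2 fold change 0.08, standard error 0.134). JUNB, with 45.4, 59.5 and 64.9 CPM against 52.1, 77.2 and 43.8 CPM, had a log2 fold change of 0.03 (standard error 0.186). JUND had 110, 143 and 130 CPM in GFP cells and 98.4, 166 and 97.1 CPM in RfA1 cells (log2 fold change -0.09, standard error 0.181). RfA1 replicate 2 was the highest of the 6 libraries for all 3 genes, and RfA1 replicate 3 the lowest for all 3. Without RfA1 replicate 2 the log2 fold changes of JUN, JUNB and JUND were -0.12, -0.24 and -0.39, and JUND passed the adjusted threshold as lower, as did 11.5% of all genes in that fit.

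Part of this common movement of the JUN genes ran along GC content, most closely in JUND. All 10 genes have transcripts richer in GC than the median tested gene (49.1%), from 50.8% for ATF3 to 69.7% for JUND and 64.9% for JUNB. A smooth trend of each library on transcript GC content, fitted over all tested genes, reached 0.24, 0.22 and 0.26 on the log2 scale in GFP replicates 2 and 3 and RfA1 replicate 2 at the GC content of JUND. It was -0.12, -0.26 and -0.33 in GFP replicate 1 and RfA1 replicates 1 and 3. JUND itself deviated from its mean over the 6 libraries by 0.23, 0.10 and 0.45 in the former and by -0.14, -0.31 and -0.33 in the latter. The spread of JUND within groups was 0.34 on the log2 scale, and 0.0995 once the trend was subtracted. For JUNB it went from 0.351 to 0.172 and for JUN from 0.239 to 0.172, whereas for ATF3 it was 0.0463 before and 0.0521 after, for EGR1 0.235 and 0.265 and for FOSB 0.0976 and 0.154. In RfA1 replicate 2, JUN deviated by 0.39 and JUNB by 0.46, where the trend at their GC content was 0.05 and 0.17. With the GC trend as an offset in the test, the log2 fold changes were 0.17, 0.20 and 0.11 for JUN, JUNB and JUND, none of which passed.

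**Figure D2:**
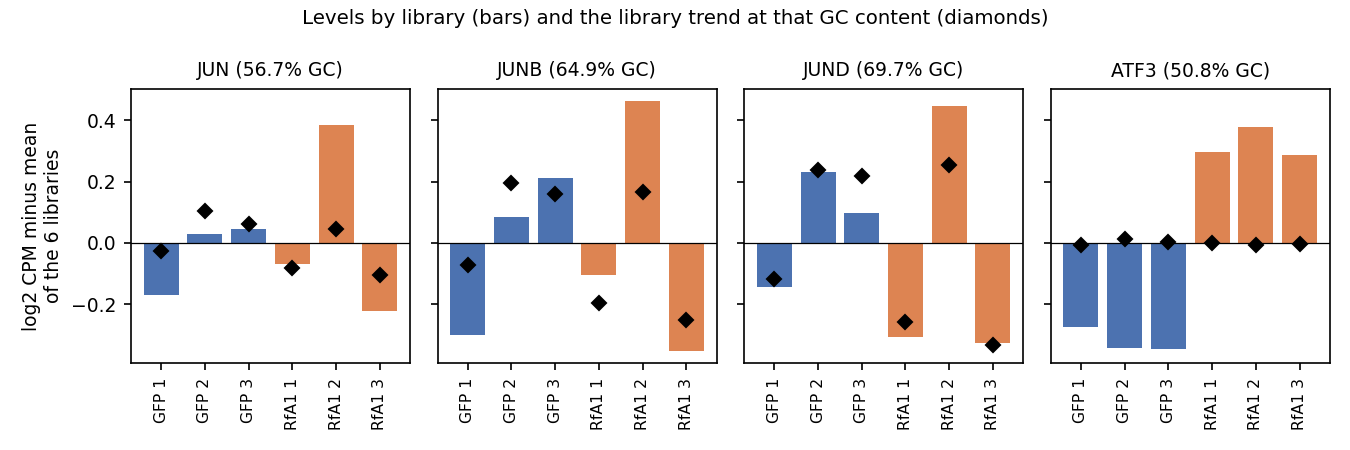
Level of JUN, JUNB, JUND and ATF3 in each library as log2 CPM minus the gene's mean over the 6 libraries (bars, blue for GFP and orange for RfA1), with the trend of that library at the gene's GC content, fitted over all tested genes, as black diamonds. The diamonds follow the bars in JUND, at 69.7% GC, and stay near 0 in ATF3, at 50.8% GC, where the bars part by group.

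ATF3 (Gene ID 467) was the most reproducible of the 10 genes. It had 116, 111 and 111 CPM in GFP cells and 173, 183 and 171 CPM in RfA1 cells, with at least 1251 counts in every library. The groups were far apart relative to their spread, with 112 ± 3.22 CPM (SD, n = 3) in GFP and 176 ± 6.28 CPM in RfA1 cells. ATF3 rose by a log2 fold change of 0.64 (standard error 0.0761), or 1.56-fold. Its log2 fold change stayed between 0.62 and 0.71 in the 16 alternative fits and passed the threshold in 12 of them. The call was lost when GFP replicate 1, 2 or 3 or RfA1 replicate 1 was left out, with log2 fold changes of 0.67, 0.63, 0.63 and 0.66, in fits where 0 to 2 genes of the whole table passed.

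CSRNP1 (Gene ID 64651) had 18.8, 16.5 and 17.9 CPM in GFP cells and 28.3, 33.7 and 28.7 CPM in RfA1 cells. Every RfA1 library exceeded every GFP library by a wide margin, and RfA1 replicate 2 was the highest. Its mean rose from 17.7 ± 1.16 to 30.2 ± 2.98 CPM (SD, n = 3 each), a log2 fold change of 0.77 (standard error 0.109), or 1.7-fold. It was called in 9 of the 16 alternative fits. The call was lost on the TPM scale (0.76 and 0.82) and without GFP replicate 1, 2 or 3 or RfA1 replicate 1 or 3 (0.81, 0.72, 0.78, 0.81 and 0.80). In these fits 0 to 4 genes of the whole table passed.

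EGR1 had the opposite sign to FOS. It had 37.2, 32.0 and 27.6 CPM in GFP cells and 19.0, 22.0 and 27.2 CPM in RfA1 cells. The groups were apart by less than 1 CPM, between GFP replicate 3 and RfA1 replicate 3, and the libraries spread widely within both groups. The log2 fold change was -0.51 (standard error 0.144), which is 1.42-fold lower with RfA1. It was negative in all 16 alternatives, from -0.65 to -0.39, and passed the adjusted threshold in 1, the fit without RfA1 replicate 2 (-0.48), in which 11.5% of all genes passed as lower.

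**Figure D3:**
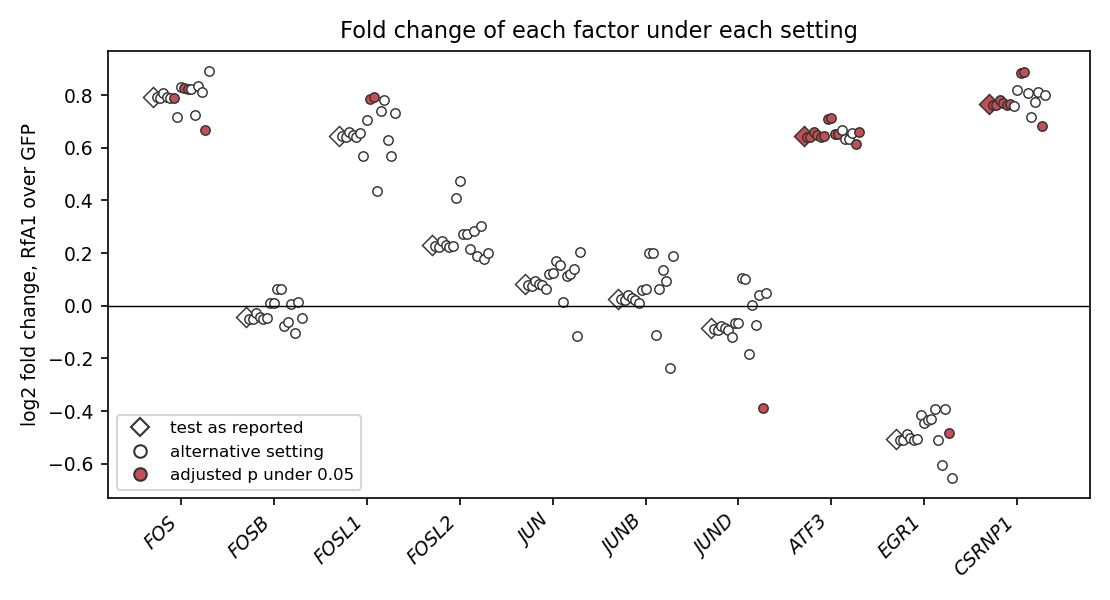
Log2 fold change of each of the 10 genes, RfA1 over GFP, in the test as reported (diamonds) and in 16 alternative fits (circles), filled red where the adjusted p was under 0.05. FOS, FOSL1, FOSL2, ATF3 and CSRNP1 are above 0 and EGR1 below 0 in every fit, whereas FOSB, JUN, JUNB and JUND lie on both sides of 0.

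As a family, the FOS genes added up to 12.2, 15.2 and 15.7 TPM in GFP cells and 21.2, 22.6 and 20.9 TPM in RfA1 cells, without overlap. The JUN genes added up to 482 ± 38.7 TPM in GFP and 514 ± 100 TPM in RfA1 cells (SD, n = 3 each), with overlap. The summed JUN level was thus 36.0, 32.8 and 32.5 times the summed FOS level in GFP cells and 22.5, 27.8 and 20.9 times in RfA1 cells. The 2 sets of ratios did not overlap. The sum of GFP replicate 1 includes FOSL2 at 3.72 TPM, with the unusual ratio of count to TPM given above. Without FOSL2, a comparison added after that ratio was seen, the FOS sums were 8.46, 8.78 and 10.2 TPM in GFP and 15, 15.1 and 13.2 TPM in RfA1 cells, and the JUN level was 51.8, 56.7 and 50.2 times the FOS sum in GFP and 31.9, 41.5 and 33.2 times in RfA1 cells, again without overlap. JUN made up 67.0% to 71.8% of the JUN family in every library, while FOS and FOSL2 held the largest shares of the FOS family in turn, with 24.7% to 37.6% and 29.3% to 42.1%, of which the GFP replicate 1 values rest on the same FOSL2 level.

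Deviations from the group means over the 6 libraries showed which genes moved together inside the groups. They correlated with a Pearson's r of 0.98 for JUN and JUNB, 0.96 for JUN and JUND and 0.92 for JUNB and JUND. The r of ATF3 with CSRNP1 was 0.91 and that of FOS with CSRNP1 0.89. With the GC trend subtracted, the 3 JUN pairs had r of 0.92, 0.68 and 0.34, ATF3 with CSRNP1 0.72 and FOS with CSRNP1 0.56. The most negative pairs were FOSB with FOSL2 (r of -0.81, and -0.65 with the trend subtracted), FOSB with ATF3 (-0.77 and -0.56) and EGR1 with FOSL1 (-0.75 and -0.82). With the trend subtracted, the strongest of all pairs was FOSB with JUND (-0.97, from -0.57 before). Pairs not named here, such as EGR1 with JUNB (-0.82), then reached similar values. These are descriptions over 6 libraries that share the depth and GC differences given above.

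For genes that feed into AP-1 or are controlled with it, 5 lists were compiled from textbook knowledge of the pathway. Of 137 genes, 133 were in the table and 119 were tested. DUSP1 was the 1 gene past the adjusted threshold, and 22 were higher and 2 lower at an unadjusted p under 0.05 (20.2% of the 119, against 13.9% of all genes tested). The lists were written with earlier results of these data known, the change of DUSP1 among them. Their counts, and the p-values of their genes, are therefore a description, and nothing is concluded from them.

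The other immediate early genes, 24 tested, had a median log2 fold change of 0.20. In edgeR's quasi-likelihood test 0 passed the adjusted threshold, and 7 were higher and 0 lower at an unadjusted p under 0.05 (29.2%, against 13.9% of all genes). DESeq2 also called 0. SGK1, a serum-induced kinase, had 5.40, 2.82 and 3.80 CPM in GFP cells and 6.64, 6.67 and 7.53 CPM in RfA1 cells (log2 fold change 0.79, standard error 0.210, adjusted p = 0.221 from edgeR). IER3 had log2 fold change 0.49 (adjusted p = 0.234 from edgeR), and PPP1R15A, which encodes the stress phosphatase subunit GADD34, had 0.30 (adjusted p = 0.254). ZFP36L1, an mRNA decay factor, had 0.23 (adjusted p = 0.297). For each of these 4, named for the smallest p in the list, the 3 RfA1 libraries lay above the 3 GFP libraries in CPM. That held for 9 of the 24, against 9.86% of all genes tested. With the GC trend as an offset 5 of the 24 passed, all higher, against 1.12% of all genes.

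The negative feedback genes, 15 tested, encode mainly phosphatases and adaptors that dampen MAP kinase signals, with NAB1 and NAB2, corepressors of EGR factors. Their median log2 fold change was 0.20, 12 of the 15 were positive, and 5 were higher and 1 lower at an unadjusted p under 0.05 (40%, against 13.9% of all genes). With the GC offset 3 passed, all higher, against 1.12% of all genes. DUSP1, the phosphatase of JNK, p38 and ERK, rose from 42.6, 38.0 and 38.3 CPM to 70.7, 67.0 and 77.1 CPM (log2 fold change 0.85, standard error 0.0917, adjusted p = 0.0109 from edgeR). Without GFP replicate 2 or 3 it did not pass, at log2 fold changes of 0.83 in both fits, where 0 genes of the whole table passed. DUSP16 and SPRY2 had log2 fold changes of 0.43 and 0.34 (adjusted p = 0.218 and 0.253 from edgeR). SPRED3 had the opposite sign, at 5.40, 5.12 and 5.39 CPM in GFP cells and 3.19, 3.34 and 3.24 CPM in RfA1 cells (log2 fold change -0.70, standard error 0.165, adjusted p = 0.179 from edgeR). DUSP2, DUSP6 and SPRY4 were below the filter.

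Of the other basic leucine zipper genes, 29 tested, 0 passed the adjusted threshold in edgeR's test or in DESeq2, and the median log2 fold change was 0.05. At an unadjusted p under 0.05, 3 were higher and 0 lower (10.3%). Of all genes, 13.9% passed in either direction and 7.3% as higher. The 3 were NFE2L2, which encodes the oxidative stress factor NRF2, and the small MAF genes MAFK and MAFG, whose products pair with it. NFE2L2 had 57.4, 53.0 and 53.2 CPM in GFP cells and 70.6, 68.8 and 69.9 CPM in RfA1 cells (log2 fold change 0.36, adjusted p = 0.175 from edgeR). MAFK and MAFG had log2 fold changes of 0.34 and 0.25 (adjusted p = 0.238 and 0.278 from edgeR). ATF6B had -0.21 (adjusted p = 0.362), with overlap between the groups. With the GC trend as an offset NFE2L2, MAFK and MAFG all passed as higher, against 1.12% of all genes.

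The upstream kinases and SRF partners, 34 tested, had a median log2 fold change of 0.0020, with 17 positive. In edgeR's test and in DESeq2 0 passed, and at an unadjusted p under 0.05 there were 4 higher and 1 lower (14.7%, near the 13.9% of all genes). With the GC offset 0 passed. MAPK8, which encodes the JUN kinase JNK1, had 30.0, 26.0 and 30.0 CPM in GFP cells and 37.4, 33.5 and 37.2 CPM in RfA1 cells (log2 fold change 0.33, adjusted p = 0.253 from edgeR). MAP2K4, a kinase that activates JNK, had 0.23 (adjusted p = 0.320), RPS6KA5 0.36 (adjusted p = 0.278) and MAPK11, a p38 kinase, -0.37 (adjusted p = 0.321, from the same test).

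Of 30 AP-1 target genes, 27 were in the table and 17 were tested. The collagenase gene MMP13 and the cytokine genes IL6, CXCL8 and IL11 were below the filter. In edgeR's test and in DESeq2 0 of the 17 passed, with 3 higher and 0 lower at an unadjusted p under 0.05 (17.6%, against 13.9% of all genes) and a median log2 fold change of 0.09. With the GC offset HBEGF and GADD45B passed as higher, against 1.12% of all genes. HBEGF, an EGF receptor ligand, had 8.46, 8.83 and 7.15 CPM in GFP cells and 12.2, 10.2 and 13.2 CPM in RfA1 cells (log2 fold change 0.54, standard error 0.143, adjusted p = 0.221 from edgeR). GADD45B had 0.31 (adjusted p = 0.297), PLAU, at 1.08 to 3.05 CPM, 0.69 (standard error 0.297, adjusted p = 0.342), and CCND1, the gene of cyclin D1, 0.16 (adjusted p = 0.374, from the same test).

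**Figure D4:**
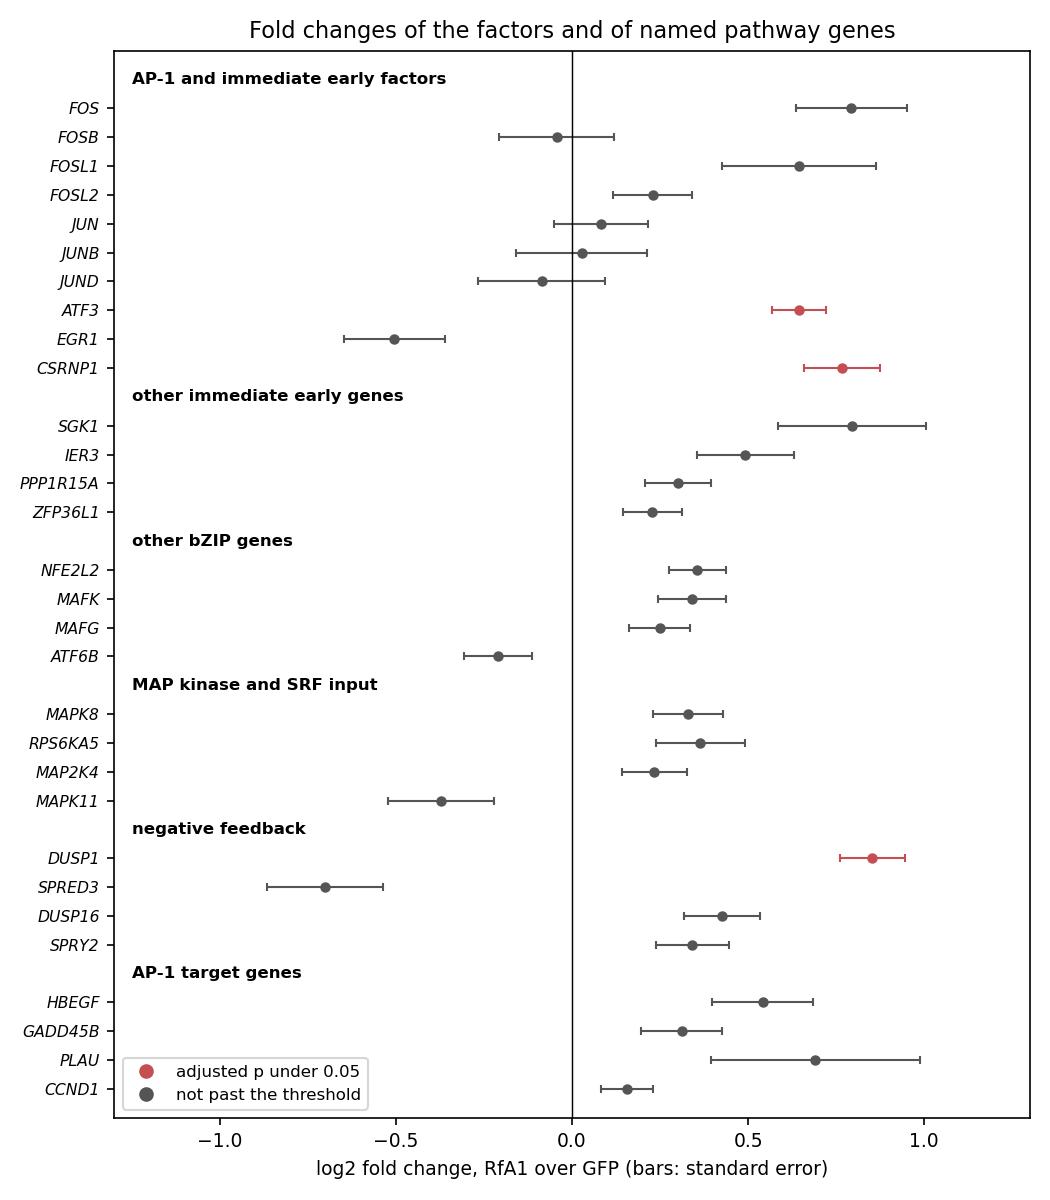
Log2 fold change, RfA1 over GFP, of the 10 factors and of the 4 genes with the smallest p in each of the 5 lists, with bars of 1 standard error; red marks an adjusted p under 0.05 over 13002 genes. ATF3, CSRNP1 and DUSP1 are red, and FOS has a fold change of the same size (0.79) with a wider bar.

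**Figure D5:**
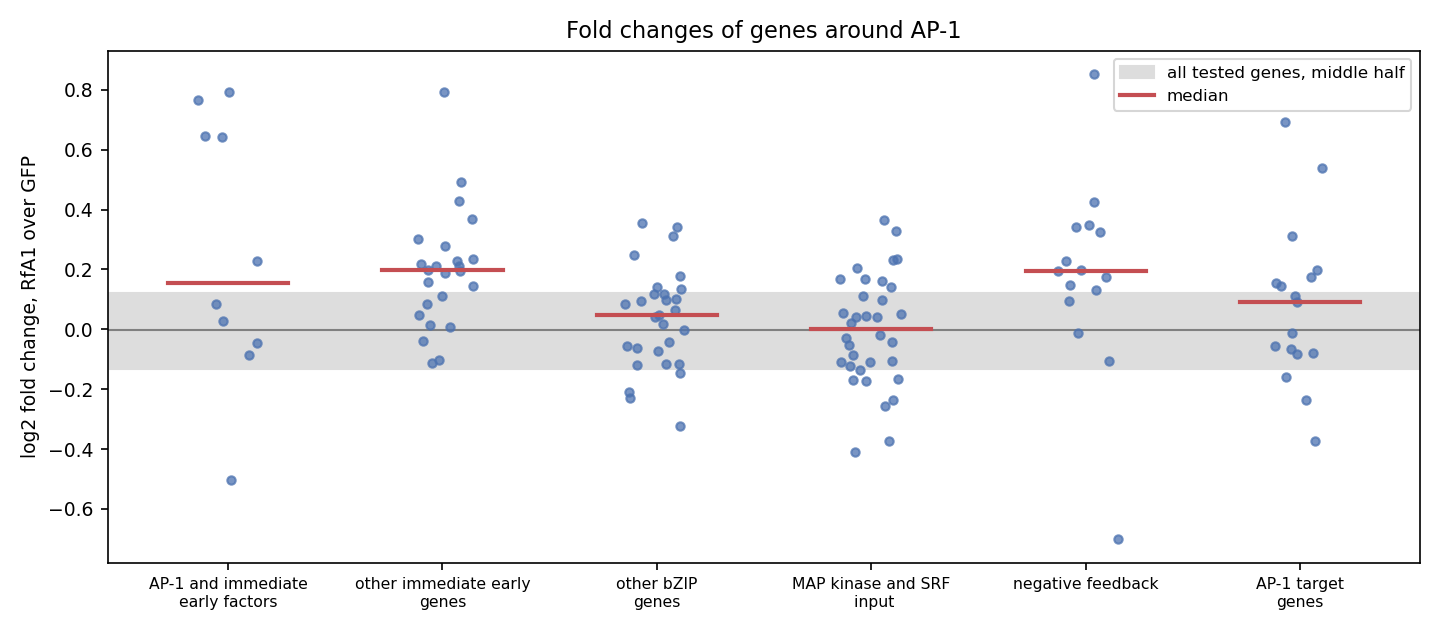
Log2 fold change, RfA1 over GFP, of every tested gene of the 10 factors and the 5 lists (points), with the median of each (red lines) and the middle 50% of all 13002 tested genes in grey, from -0.131 to 0.121. The medians of the immediate early and negative feedback lists, 0.20 each, lie above the grey band, and that of the upstream kinases lies at 0.0020.

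The genes whose pattern over the 6 libraries was most like the mean of the 10 factors were sought among 10423 other genes of at least 3 log2 CPM. The leading genes were NDUFB6 (Pearson's r of 0.992), MRGBP (0.992), WDR5 (0.989), TNFSF9 (0.985) and SEMA4C (0.983). The mean pattern was -0.20, -0.09 and -0.08 on the log2 scale in GFP replicates 1, 2 and 3 and 0.04, 0.31 and 0.02 in RfA1 replicates 1, 2 and 3. It was thus led by RfA1 replicate 2, and 74 of the 10423 genes had r over 0.9. Of the 5, TNFSF9 differed most between the groups, by 0.269 on the log2 scale (adjusted p = 0.357 from edgeR). SEMA4C differed by 0.265 and MRGBP by 0.23 (adjusted p = 0.321 and 0.323 from edgeR). WDR5 differed by 0.06 and NDUFB6 by 0.05 (adjusted p = 0.734 and 0.800, from the same test).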

How the data were processed

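RNA of HEK-293T cells transfected with GFP or GFP-tagged RfA1 was sequenced, with 3 libraries per group as labelled. The submitters' processing notes name HISAT and build GRCh38.p13; the counting tool and annotation are not given in the sources used here. The authors deposited estimated counts per gene (7.39% to 8.02% of values per library are not whole) and TPM, which divides by transcript length and library total. Group averages and FPKM in the same table were not used.

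Counts were rounded and tested with edgeR 4.0.16 (R 4.3.3), with robust quasi-likelihood fits, filterByExpr (minimum count 10, total 15), TMM normalization and two-sided tests of RfA1 against GFP on all 13002 genes kept. P-values were adjusted by Benjamini-Hochberg over all of them, with a threshold of 0.05. They measure only the spread between these libraries, which may be technical. The standard error is the absolute log2 fold change over the square root of F. Data were simulated over 13002 genes with the same dispersion for every gene and with no GC trend or outlying library. In them 78% of 200 genes changed 1.5-fold were recovered and 6.02% of calls were false. The libraries studied here differ in those respects, so these rates need not hold for them.

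CPM are TMM-scaled. Transcript GC content came from GENCODE release 29, which matched 99.3% of tested genes, and promoters from RefSeq. The alternatives were DESeq2 1.42.0, limma 3.58.1 on log2(TPM + 1) and log2(TPM + 0.1), other scalings and filters, a replicate block, a GC offset and leaving out each library. The 10 genes and the 5 lists were chosen with earlier results of these data known. The named genes were the 10 members, up to 4 genes of each list with the smallest p, and the 5 outside genes of at least 3 log2 CPM with the highest correlation to the members' mean. No set test was run. Figures were drawn with matplotlib 3.10.9.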

Additional observations from a re-analysis of the deposited data

How the results depend on the processing

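The number of the 10 factors called (2) stayed at 2 with DESeq2, upper-quartile or total-count scaling and both other filters. It was 1 with limma on either TPM scale, 4 with the GC offset, and 0 to 5 when a library was left out. Calls over all genes (10, of which 8 higher) numbered 33 (17 higher) with DESeq2, 6 (4 higher) with upper-quartile scaling, 20 (12 higher) without a filter, 4 with limma on either TPM scale and 203 (146 higher) with the GC offset. They ranged from 0 to 2636 when a library was left out, the highest number coming without RfA1 replicate 2. The 5 lists together (1 called) had 13 with the GC offset, all higher, and 0 to 25 without a library. The 25 list genes (13 higher and 12 lower) and the 5 factors (3 higher and 2 lower) came from the fit without RfA1 replicate 2. There 8.56% of all genes were called higher and 11.5% lower. FOSB changed sign to 0.009 and 0.011 with limma on TPM and to 0.065 with the GC offset, and JUND to 0.107 with the GC offset. Without single libraries FOSB ran from -0.104 to 0.013, JUN from -0.115 to 0.203, JUNB from -0.238 to 0.189 and JUND from -0.389 to 0.047. The median log2 fold change of all tested genes lay between -0.008 (upper-quartile scaling) and 0.052 (limma on log2(TPM + 0.1)) in every fit. The RfA1 minus GFP difference in the FOS family sum was 7.21 TPM, and 5.29 TPM without FOSL2. The cause of these changes was not tested.

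Both groups carry replicate numbers 1 to 3. Deviations of same-numbered libraries correlated by 0.166, 0.321 and -0.143, and 3 of the 6 libraries correlated best with their own number, so the numbers were not taken as pairs. With a replicate block 3 factors (FOS added), 625 genes (309 higher) and 10 list genes were called. With the block and the GC offset together these were 4, 459 (306 higher) and 16, with FOSB at 0.064 and JUND at 0.103.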
